A study of Mus musculus with 5 samples.

Results

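Regions of open chromatin that were shared by limb ectoderm and forebrain and that lay at the ends of protein-coding genes were examined in mouse embryos of the CD1 stock. A region entered the set, and is called a member here, when its merged interval held a called ATAC-seq peak in each of the 5 libraries and its midpoint was no more than 2.5 kb from the start or the finish of a protein-coding gene (mm10). There were 9836 members among 231437 merged regions on chromosomes 1 to 19 and X, or 4.25% of them. ATAC-seq uses a transposase that inserts adapters where DNA is accessible, and a peak is an interval where such fragments pile up above the local background. The groups were distal ectoderm of the forelimb at E14.5 (2 libraries), distal ectoderm of the hindlimb at E14.5 (2 libraries) and forebrain at E13.5 (1 library). Trypsin was used to free the ectoderm, collagenase to dissociate the forebrain. Tissue, age and enzyme therefore differ together and cannot be told apart in a forebrain difference. No genotype or treatment other than the stock is given, nor whether replicates came from separate embryos or from pools, so the spread between replicates may be technical.

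Members were chosen by the called peaks of all 5 libraries and by their position, so presence in every list and nearness to a gene end are descriptions and not findings. No significance test was run on the groups of 2, 2 and 1 libraries, so no difference is called significant. Values are given per library with exact Clopper-Pearson 95% intervals on shares, which cover counting error only. The labels were checked against markers of each tissue by asking for a peak within 2.5 kb of an end of the gene. Of 10 limb ectoderm markers, 10 and 10 had a peak in the forelimb libraries, 6 and 9 in the hindlimb pair and 7 in forebrain. Forebrain thus had more of them than hindlimb replicate 1, so they did not set that library apart. All 10 forebrain markers had a peak in forebrain, against 8 and 6 in the forelimb libraries and 7 and 8 in the hindlimb pair. Of 6 limb mesenchyme markers 3 to 6 had a peak in each library, of 6 blood and endothelial markers 2 to 3, and of 4 melanocyte markers 3 to 4. The part of other cell types in the results was not tested.

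A promoter is the stretch around a gene's transcription start where general factors and RNA polymerase II assemble. In mammals many promoters lie in CpG islands, GC-rich stretches that keep their CpG dinucleotides. These serve most genes that are needed in nearly every cell, and many other genes as well. Short motifs within them are bound by widely expressed factors, among them Sp1 (GC box), NF-Y (CCAAT box), ETS family proteins, NRF1, CREB and ATF proteins (CRE), YY1 and ZNF143, while a TATA box placed just before the start is typical of many strongly regulated, tissue-restricted genes.

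The sequences of 10 promoters show the motifs that the results compare, each of them present in a minority of members, and a gene without a member. Each runs from base -160 to base 29 relative to the annotated start at position 0, 190 bases read 5′ to 3′ along the gene, and comes from RefSeq (GRCm38.p6, the assembly behind mm10). The first 7 belong to the member with the highest mean rank (a measure of peak height across libraries, defined with the results) that holds the motif marked in capitals on either strand and was not already taken for another motif: GC box, CCAAT box, ETS, NRF1, CRE, YY1 and ZNF143 in that order.
Fmn1 (chr2:113327576-113327765, plus strand): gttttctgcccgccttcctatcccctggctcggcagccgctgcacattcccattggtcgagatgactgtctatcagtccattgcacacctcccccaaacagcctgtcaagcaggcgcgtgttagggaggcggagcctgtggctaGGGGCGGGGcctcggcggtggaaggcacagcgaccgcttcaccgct
Gm51425 (chr17:17004956-17005145, plus strand): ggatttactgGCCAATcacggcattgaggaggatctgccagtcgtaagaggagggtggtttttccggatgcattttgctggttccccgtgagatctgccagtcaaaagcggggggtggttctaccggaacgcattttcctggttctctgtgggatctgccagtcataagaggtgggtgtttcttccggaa
Gm5165 (chr17:17234743-17234932, plus strand): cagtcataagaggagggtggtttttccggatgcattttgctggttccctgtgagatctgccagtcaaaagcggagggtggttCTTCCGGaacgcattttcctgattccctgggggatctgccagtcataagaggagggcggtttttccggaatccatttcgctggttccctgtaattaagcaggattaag
Pot1b (chr17:55712607-55712796, minus strand): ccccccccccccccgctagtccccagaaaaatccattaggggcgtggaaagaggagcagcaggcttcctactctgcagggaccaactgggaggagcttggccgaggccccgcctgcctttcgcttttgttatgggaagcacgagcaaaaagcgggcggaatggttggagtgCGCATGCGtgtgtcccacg
Cenpw (chr10:30200511-30200700, minus strand): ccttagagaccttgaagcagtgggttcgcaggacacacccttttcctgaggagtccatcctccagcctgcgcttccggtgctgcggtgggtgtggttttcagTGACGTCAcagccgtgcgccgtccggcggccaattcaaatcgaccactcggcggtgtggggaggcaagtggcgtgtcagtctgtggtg
2610008E11Rik (chr10:79097571-79097760, minus strand): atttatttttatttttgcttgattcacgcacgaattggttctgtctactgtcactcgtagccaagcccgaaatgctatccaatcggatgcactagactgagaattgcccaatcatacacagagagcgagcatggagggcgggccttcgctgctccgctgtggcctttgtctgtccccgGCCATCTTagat
Chchd3 (chr6:33060231-33060420, minus strand): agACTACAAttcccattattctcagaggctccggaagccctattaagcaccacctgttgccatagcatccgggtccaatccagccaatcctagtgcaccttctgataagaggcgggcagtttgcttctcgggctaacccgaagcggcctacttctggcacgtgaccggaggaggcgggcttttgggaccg
Here Fmn1 encodes a formin that nucleates actin filaments, Pot1b a telomere-binding protein, Cenpw a centromere protein and Chchd3 a scaffold of mitochondrial cristae. The Cenpw window also holds a CCAAT box and an ETS match, and that of Chchd3 a CCAAT box, an ETS match and an E-box. The next pair has an ETS match in capitals and the largest lead of forebrain over ectoderm among ETS promoters, and was chosen after the values were seen. Mogs encodes the glucosidase that starts the trimming of N-linked sugars, and Zfp105 a zinc finger protein.
Mogs (chr6:83115346-83115535, plus strand): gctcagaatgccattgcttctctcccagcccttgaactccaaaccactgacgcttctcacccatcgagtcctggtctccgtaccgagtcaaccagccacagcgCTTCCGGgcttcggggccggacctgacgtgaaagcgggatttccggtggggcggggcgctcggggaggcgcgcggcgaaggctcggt
Zfp105 (chr9:122922918-122923107, plus strand): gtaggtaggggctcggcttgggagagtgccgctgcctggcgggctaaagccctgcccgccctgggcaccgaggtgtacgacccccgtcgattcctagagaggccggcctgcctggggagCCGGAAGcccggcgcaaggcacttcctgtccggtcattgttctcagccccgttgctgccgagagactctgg
The last, for contrast, is the first keratin-associated protein gene by name that has a TATA box, shown in capitals, and no member at its start. These genes encode matrix proteins of the hair shaft.
Krtap1-4 (chr11:99583648-99583837, minus strand): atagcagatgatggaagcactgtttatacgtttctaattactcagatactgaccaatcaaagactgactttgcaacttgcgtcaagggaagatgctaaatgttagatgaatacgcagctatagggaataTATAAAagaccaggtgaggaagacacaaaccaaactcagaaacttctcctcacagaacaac
The 300-base promoter of Mogs holds 29 CpG dinucleotides, that of Zfp105 19 and that of Krtap1-4 3.

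Members lay at gene starts. Of the 7939 members whose nearest gene end belonged to a gene of known strand, 7604 were nearest to a start and 335 to the other end, a start share of 95.8% (95% interval 95.3 to 96.2). The strand was not known for the other 1897. The midpoint lay a median of 180 bp from the gene end, and 80.9% of members were within 500 bp, although the rule allowed 2.5 kb. Distances beyond 1 kb were found for 9.91%. The rule's limit fell in a thin part of this distribution. Just inside it was the region at Npm2 at 2500 bp, and just outside it the region at Btbd6 at 2501 bp. At Npm2 the fold enrichment, which is the authors' ratio of fragment pileup to local background at a summit, was 6.33 and 5.83 in the forelimb libraries, 4.27 and 7.78 in the hindlimb pair and 14 in forebrain. Across the limit, Btbd6 had 8.28, 6.05, 5.02, 8.87 and 12.9 in the same order.

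The more libraries had a peak in a region, the more often it lay at a gene end. Of regions found in a single library 6.59% had their midpoint within 2.5 kb of one, of those found in 2 libraries 9.98%, in 3 libraries 13.8% and in 4 libraries 18.5%. For regions in all 5 libraries the share was 63.2% (62.4 to 63.9), leaving 5732 shared regions away from gene ends. Hindlimb replicate 1, the library with the shortest list, was the missing one in 1620 (66.6%) of the 2433 gene-end regions with a peak in 4 libraries, forebrain in 421 and the remaining libraries in 79 to 228. Without it the set grew to 11454 members.

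Members were wide and sat asymmetrically over the start. Their median width was 1061 bp (quartiles 876 and 1282, range 277 to 3147), against 726 bp for the shared regions away from gene ends, 477 bp for gene-end regions with a peak in the 4 ectoderm libraries only and 312 bp for gene-end regions with a peak in forebrain only. The span of a member joins 5 lists, so it grows with the number of libraries, and the comparison with the shared regions away from gene ends is the one made over the same number of libraries. Around the start, the median edges were at -382 and 675 bp, 87.3% of the 7604 start members covered the start itself, and 77.7% reached farther downstream than upstream. The summit with the largest −log10 p of each library, in contrast, centred near the start, and it lay upstream in 52.9% to 55.6% of start members. Its median position was -12 and -15 bp in the forelimb libraries, -9 and -13 bp in the hindlimb libraries and -6 bp in forebrain, and 42.9% to 45.7% of summits fell in the 150 bp before the start.

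**Figure D1:**
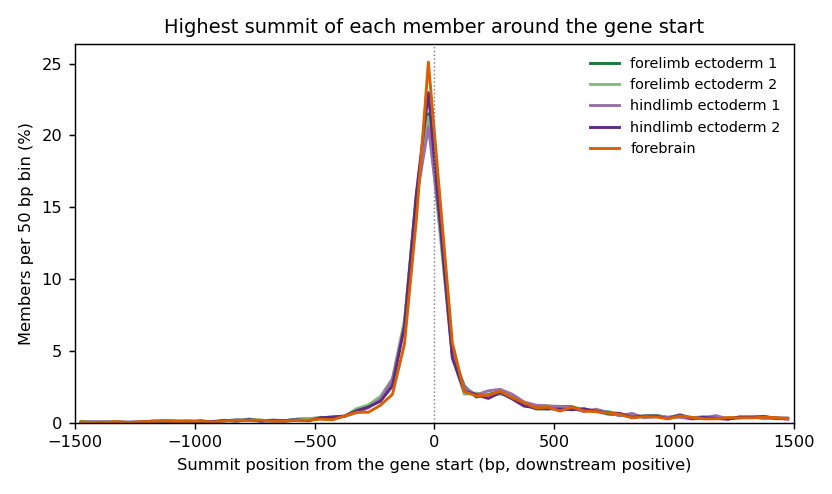
Position of the summit with the largest −log10 p in each start member relative to the gene start (bp, x axis). The y axis is the percentage of 7604 members per 50 bp bin, with 1 line for each of the 5 libraries. All 5 lines peak in the bin just upstream of the start, and a low shoulder follows downstream near 250 to 300 bp, where forelimb replicate 1 has 2.17% of its summits.

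Members at the other end of genes were narrower and stood lower in the ranking described further on. The 335 members nearest to a gene's finish had a median mean rank of 23.8 against 52.1 at starts (26.1 against 51.5 by pileup), a median width of 723 bp against 1071 bp at starts, and a median distance of 1025 bp against 168 bp. Of these, 61 (18.2%) lay within 1 kb of a further start listed for the gene or a neighbour. The member 1956 bp from the finish of Prss12, a serine protease gene, is an example, since it was 222 bp from a listed start. The highest-ranked member at a finish was that of Lars2, the mitochondrial leucyl-tRNA synthetase gene (chr9:123461698-123462278), 687 bp from the finish and 2220 bp from the nearest listed start. Fold enrichment there was 24.8 and 23.6 in the forelimb libraries, 24.5 and 25.8 in the hindlimb pair and 21.9 in forebrain. The value of hindlimb replicate 1 was the highest of all members in that library. The local background at Lars2 was 4.34 to 9.51 times the library's own rate, against library medians of 1.84 to 4.34 over all members. The cause was not tested.

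Starts of genes that run in opposite directions, away from each other, were listed near 606 of the 7777 members with a listed start. These members are called divergent here. A divergent member need not cover the starts. That of Tmem38a was 611 bp wide, with its midpoint 978 bp downstream of the gene's start. Whether the paired genes use the same promoter was not tested. Such divergent members stood higher than members with a single start in mean rank, the average over the 5 libraries of a member's percentile by fold. The median was 62.9 against 50.9, and at 66.1 against 49.6 when ranked by pileup, the fragment depth at the summit. Mrpl32, a mitochondrial ribosomal protein, and Psma2, a proteasome subunit, share a member with folds of 19.4 and 15 in the forelimb libraries, 11.2 and 20.6 in the hindlimb pair and 18.6 in forebrain. Mrpl50 and Zfp189 share another, and the histone genes H2ac12 and H2bc12 a further member.

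About as many genes had a member as had none. Of 21631 protein-coding genes, 10994 (50.8%) had a member within 2.5 kb of an end, and 8532 (49.4%) of the 17274 genes of known strand had one at the start. A member at the finish and none at the start was found for 369 genes. Another 4085 genes had no peak at an end in any library.

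Genes of the basic machinery of the cell carried members far more often than this background. All 20 aminoacyl-tRNA synthetase genes, which load amino acids onto tRNAs, and all 19 chaperonin and heat shock genes had a member. So did 36 of 37 subunits of respiratory complex I, 51 of 53 spliceosome proteins, 79 of 85 cytosolic ribosomal proteins, 42 of 46 translation initiation factors and 37 of 41 subunits of RNA polymerase II and Mediator. Counts were 66 of 77 for mitochondrial ribosomal proteins, 33 of 39 for proteasome subunits, 26 of 29 for DNA replication proteins, 11 of 13 for cohesin and CTCF genes and 21 of 26 for complex IV and ATP synthase subunits. Among the genes without a member, Sf3b3, Srsf12, Mrpl10, Mrpl11, Atp5d and Eif3l each had a gene-end peak in 4 libraries, whereas the testis-type paralogue Rpl10l had one in 1 library and Orc1 in none. Without hindlimb replicate 1 the counts rose to 74 of 77 for mitochondrial ribosomal proteins and 36 of 39 for the proteasome.

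Inducible and rhythmic genes were also members. Of 20 immediate early genes, which are switched on within minutes by stimuli, 18 had a member, the others being Egr2 and Nr4a1, with a peak in 1 library each. Of 18 circadian clock genes 15 had one. Replication-dependent histone genes, which lie in clusters and are transcribed in S phase, had one in 55 of 67 cases over 36 regions. These genes are near-identical copies in places, and the treatment of reads that match several copies is not stated, so their values are uncertain. Of 394 Zfp zinc finger genes 296 (75.1%) had a member, with 324 when hindlimb replicate 1 was left out.

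Developmental regulators and genes of specialised cells fell near or below the background. Of 39 Hox genes, which pattern the body axis, 4 had a member (10.3%, interval 2.87 to 24.2). Without hindlimb replicate 1 there were 5, and 2 when the distance limit was 1 kb. Most Hox genes did have a gene-end peak in some library: 22 and 15 in the forelimb libraries, 16 and 24 in the hindlimb pair and 30 in forebrain. Only 2 had none in any library. The member of Hoxc13, which acts in hair and nail, had folds of 6.16 and 7.42 in the forelimb libraries, 6.89 and 11.8 in the hindlimb pair and 4.15 in forebrain, lowest in forebrain. Counts were 18 of 44 for Fox genes, 9 of 19 for Sox genes and 5 of 13 for Tbx genes. Among genes of the basal epidermis 13 of 22 had a member, among them Klf5 and Perp, while Krt14 and Krt15 had a gene-end peak in 4 libraries and Krt5 in 3. Of 18 genes of differentiated epidermis 2 had a member, Klf4 and Lor. Forebrain progenitor genes had a member in 11 of 20 cases and neuronal genes in 9 of 21, so regions open in all 5 libraries include Sox2, Dlx1 and Syt1, whose products work in brain. At a −log10 q of 5 or more in every library, the counts were 5 for Sox genes, 6 for forebrain progenitor genes and 5 for neuronal genes, so these members were often called weakly in some library. At the far end, 2 of 1106 olfactory receptor genes, 3 of 353 vomeronasal receptor genes, 0 of 56 keratin-associated protein genes (upper limit of the interval 6.38%) and 0 of 71 defensin genes (5.06%) had one. The olfactory receptor count was 5 without hindlimb replicate 1 and 0 at the stricter q. Of the olfactory receptor genes 875 had no gene-end peak in any library.

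**Figure D2:**
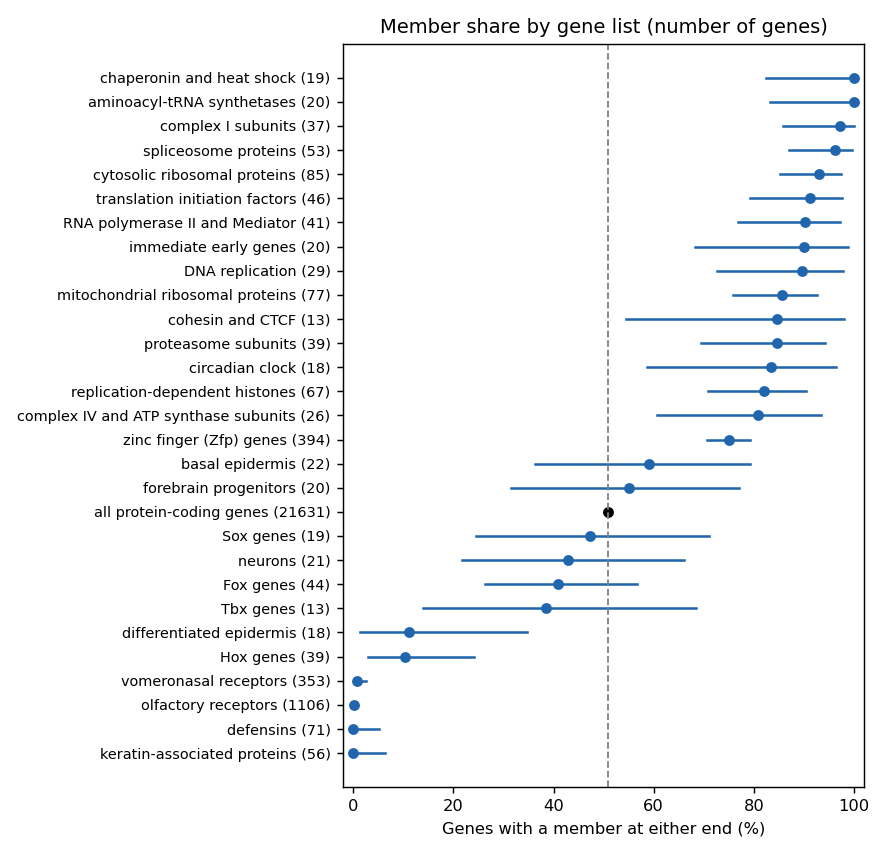
Percentage of genes with a member within 2.5 kb of an end (x axis) for each gene list (y axis, number of genes in brackets), with bars for the exact 95% interval and the dashed line at the share over all protein-coding genes, 50.8%. Lists of basic cell machinery lie between 80.8% and 100%, receptor, keratin-associated and defensin genes at or below 0.850%.

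Promoter sequence, which the rule did not use, separated genes with and without a member. A promoter of 300 bases, 250 before and 50 after the start, was available within 500 bp of the annotated start for 14919 genes, of which 7540 (50.5%) had a member at the start. The median GC content was 61.7% in promoters with a member and 49.0% in the others. CpG observed/expected, the number of CpG dinucleotides over that predicted from the C and G counts, had a median of 0.797 with a member and 0.231 without. Values of 0.6 or more, called CpG-rich here, were found in 79.9% (79.0 to 80.8) of promoters with a member and 17.2% (16.3 to 18.1) of the others.

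The share of promoters with a member climbed along the whole range of CpG content. Below 0.1 it was 2.06% (35 of 1698), between 0.4 and 0.5 it was 42.6%, between 0.6 and 0.7 it was 74.1%, and at 1 or more it reached 89.8% (1105 of 1231). The strength of members followed CpG content only in part. The median mean rank rose from 29.8 below 0.1 to 60.2 between 0.8 and 0.9 and was 54.5 at 1 or more. Across the 7540 members, Spearman's correlation of CpG observed/expected with rank lay between 0.0259 and 0.126 in the 5 libraries, while that of GC content with rank was negative in each, between -0.150 and -0.0233. These points share their libraries and base composition.

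**Figure D3:**
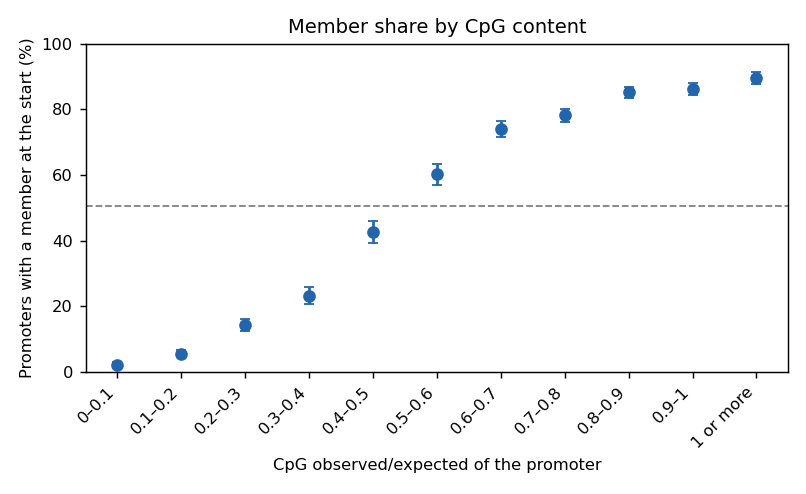
Percentage of promoters with a member at the start (y axis) by CpG observed/expected of the 300-base promoter (x axis), with exact 95% intervals and the dashed line at the share over all 14919 promoters, 50.5%. The share climbs from 2.06% in the lowest bin to 89.8% in the highest.

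The motifs shown in the printed sequences were more frequent at members. Each was searched by its letters on both strands, N standing for any base and overlaps with other motifs allowed, except the TATA box, TATAAA, which was taken on the gene's strand with its first base between -40 and -15. A match describes letters and not a bound site. ETS, CCGGAAG, was in 19.9% of promoters with a member and 4.50% of the others, with 12.3% over all promoters. The GC box, GGGGCGGGG, was in 24.3% and 7.36% (all 15.9%), and the CCAAT box, GCCAAT, in 22.4% and 13.3% (all 17.9%). NRF1, CGCATGCG, stood at 4.62% and 0.867% (all 2.76%), CRE, TGACGTCA, at 3.91% and 0.976% (all 2.46%), and YY1, AAGATGGC, at 5.12% and 1.45% (all 3.30%). For ZNF143, ACTACAA, the shares were 4.83% and 2.99% (all 3.92%), for E2F, TTCCCGCC, 4.75% and 1.29% (all 3.04%), for the E-box, CACGTG, 10.8% and 5.50% (all 8.17%), and for CTCF, AGGGGGCGC, 2.35% and 0.840% (all 1.6%). AP-1 and the TATA box ran the other way. AP-1, TGANTCA, was in 3.65% and 10.8% (all 7.20%), and TATAAA in 1.07% and 5.33% (all 3.18%).

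Among CpG-rich promoters alone, part of these differences closed. The GC box was in 26.9% (25.8 to 28.1) of 6023 promoters with a member and 27.3% (24.8 to 29.8) of 1269 without, and the E-box in 11.6% and 12.3%. ETS remained at 22.3% (21.2 to 23.4) against 12.1% (10.4 to 14.1), the CCAAT box at 22.9% (21.9 to 24.0) against 13.7% (11.9 to 15.7), YY1 at 5.91% against 2.68% and ZNF143 at 4.73% against 1.73%. AP-1 was less frequent with a member, at 3.19% (2.76 to 3.66) against 4.89% (3.77 to 6.22). CTCF and TATA matches were also less frequent with a member, at 2.67% against 3.62% and 0.946% against 1.81%, with intervals that overlapped. Intervals overlapped too for NRF1 (5.38% against 3.70%) and E2F (5.26% against 4.49%).

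Over all 14919 promoters, CpG-rich or not, 7 motifs were counted together (GC box, CCAAT box, ETS, NRF1, CRE, YY1 and E-box). The share of promoters with a member was 33.7% when none was present, 63.8% with 1 kind, 82.4% with 2, 90.3% with 3 and 96.7% (29 of 30) with 4. Several of these motifs hold a CpG in their letters. The count was not repeated among CpG-rich promoters alone, so it cannot be told apart from CpG content.

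**Figure D4:**
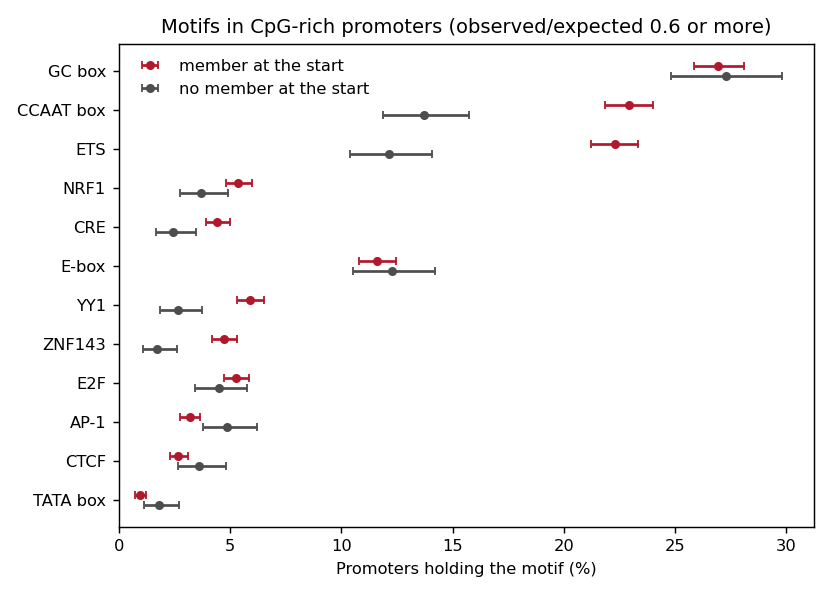
Percentage of CpG-rich promoters that hold each motif (x axis) for 6023 promoters with a member at the start and 1269 without, with exact 95% intervals. ETS, CCAAT box, CRE, YY1 and ZNF143 are more frequent with a member, AP-1 is less frequent, and the GC box and E-box are at the same level in both.

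Gene lists differed in which motifs their promoters held. ETS was in 18 of 42 spliceosome promoters, 21 of 60 for cytosolic ribosomal proteins and 20 of 57 for mitochondrial ribosomal proteins. YY1 was in 7 of 32 complex I promoters and 11 of 57 of the mitochondrial ribosomal list. The CCAAT box was in 33 of 62 histone promoters, and the TATA box in 13 of these, with a median GC content of 45.3%, below that of the other lists that are rich in members. The E-box was in 4 of 11 clock promoters, whose oscillator proteins bind it. Hox promoters held no ETS match in 19 cases and the CCAAT box in 7. In keratin-associated protein genes the TATA box was in 31 of 51 promoters, and in olfactory receptor genes AP-1 letters were in 124 of 906, where the median GC content was 35%.

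The strength of members was described by the authors' fold enrichment at the highest summit of each library, a value that belongs to its own list. The median over the members was 8.06 and 7.35 in the forelimb libraries, 5.22 and 9.04 in the hindlimb pair and 13.1 in forebrain, against 6.21, 5.91, 3.93, 6.83 and 7.52 at shared regions away from gene ends. Members made up 13.9%, 14.0%, 20.0%, 13.1% and 8.20% of the regions in these lists, in the same order. Of the 100 regions with the highest −log10 p they made up 82%, 76%, 68%, 82% and 92%. At the weak end, the least significant peak of a member came from hindlimb replicate 1 in 83.7% of cases, and in 1639 members (16.7%) its −log10 q was under 5.

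To set libraries side by side, the percentile ranks by fold within each library, taken among the same 9836 regions, were used. Across the members, Spearman's correlation of the folds was 0.905 between the forelimb libraries, 0.880 between the hindlimb libraries, 0.831 to 0.899 across limbs and 0.617 to 0.732 between ectoderm and forebrain. The value for forelimb replicate 1 with hindlimb replicate 2, 0.899, lay between those of the replicate pairs. The points share genomic position, width and base composition. Fold divides the pileup by a local background, which at members was a median of 1.84 to 4.34 times the library's own rate, so broad signal lowers it. Ranks by the pileup recovered from fold and p were therefore kept beside it.

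The highest-ranked members stood near the top in every library by fold, which follows from their choice by mean rank. Zfp960, a zinc finger gene (chr17:17063561-17064369), had 25.3 and 24.6 in the forelimb libraries, 15.4 and 26.9 in the hindlimb pair and 26.9 in forebrain. Gm5165 had 25.7, 24.1, 14.9, 24.7 and 25.4 in the same order, and Gm51425 22.9, 22.4, 14.6, 24.0 and 23.8. These 3 genes lie close together on chromosome 17. The 300-base promoters of Gm5165 and Gm51425, both printed in part above, are near copies: at the best offset, 247 of 262 aligned bases (94.3%) were the same. As for the histone genes, values at such copies are uncertain. Ranked by pileup, Zfp960 fell to percentile 72.7 in forebrain, Gm51425 to 78.4 and Gm5165 to 92.3.

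Other members at the head of the ranking belong to varied genes. Napb, a factor of synaptic vesicle fusion, had 25.5 and 23.0 in the forelimb libraries, 16.4 and 23.5 in the hindlimb pair and 23.4 in forebrain. Cldnd1, a membrane protein gene, had 22.8, 22.2, 16.1, 23.2 and 22.9, and it stayed above percentile 99 in each library by pileup. Depdc1a, a mitotic gene, Hltf, a DNA translocase gene, Fmn1 and the meiotic gene Mei4 were among the same 15. Their forebrain percentiles by pileup were 86.6, 97.9, 93.5 and 76.4 in that order. Of the 100 highest-ranked members 12 were at Zfp genes, against 2.96% of all members, and the median width of the 100 was 931.5 bp. Over the whole Zfp list the median mean rank was 61.2 by fold and 53.7 by pileup, and the median forebrain rank 63.3 and 41.3.

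Gene lists differed in strength as well as in presence. Members of DNA replication genes had a median mean rank of 73.0 by fold and 70.5 by pileup over 27 regions. Mcm3, a subunit of the replicative helicase, led them with folds of 24.6 and 22.0 in the forelimb libraries, 12.4 and 22.9 in the hindlimb pair and 18.8 in forebrain. Chaperonin and heat shock genes stood at 70.1 and 76.0, cohesin and CTCF genes at 72.9 and 71.1, and aminoacyl-tRNA synthetases at 59.8 and 65.4. Over all members the medians were 49.8 and 49.2. Mitochondrial ribosomal proteins (54.8 and 46.5) and complex IV and ATP synthase subunits (56.2 and 42.1) were above that median by fold and below it by pileup. Low values were found for members of Sox genes (23.9 by fold and 24.3 by pileup), Fox genes (29.6 and 36.6), forebrain progenitor genes (21.2 and 33.3), neuronal genes (28.6 and 38.1) and basal epidermis genes (33.1 and 34.3). In all 5 of these lists the median was below that of all members under both measures.

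Immediate early genes changed place with the measure. Their 19 regions had a median mean rank of 27.6 by fold and 49.5 by pileup, the latter close to that of all members, and a median width of 1136 bp. Junb, a subunit of AP-1, stood at 4.21 by fold, with 3.13 and 3.87 in the forelimb libraries, 2.26 and 3.74 in the hindlimb pair and 4.12 in forebrain. Fos, its partner, stood at 27.6 and Klf6, a zinc finger regulator, at 87.4. Clock genes moved in the same way, from 47.9 to 70.6 over 16 regions. Statements about the strength of these lists therefore rest on the measure.

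Motifs also went with strength. Members at promoters with a CCAAT box had a median mean rank of 69.4 (n = 1691) against 50.3 without (n = 5849), and with ZNF143 69.8 (n = 364) against 53.9. By pileup the values were 69.8 against 49.0 and 66.8 against 53.0. ETS gave 60.3 against 53.3 by fold and 56.3 against 53.0 by pileup. GC box promoters stood at 53.6 against 55.1 by fold and at 56.4 against 52.8 by pileup, so the direction turned. Members with a CTCF match (43.1 against 55.0) or a TATA box (37.5 against 54.8) were weaker, and remained so by pileup, at 45.2 against 53.9 and 46.3 against 53.9.

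A subset ranked differently in forebrain. In 491 members (4.99%) the forebrain rank was at least 25 points above the highest of the 4 ectoderm ranks, and in 501 (5.09%) at least 25 points below the lowest. By pileup there were 285 and 366. With a single forebrain library the size of chance differences between libraries of that tissue is not known. By fold, the members above were narrower, at a median of 969 bp against 1210 bp for those below. In forebrain, Spearman's correlation of width over all members was -0.0824 with fold rank and 0.216 with −log10 p. The widths of the groups made by pileup were not compared.

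The members with the largest lead in forebrain had low folds in all 4 ectoderm libraries. At Zfp660 (chr9:122902694-122903620) the fold was 4.59 and 3.38 in the forelimb libraries, 2.79 and 4.26 in the hindlimb pair and 19.5 in forebrain. The member near Pomc, the prohormone gene of pituitary and hypothalamus, lay 588 bp from the gene's finish and had 4.18, 3.07, 3.33 and 3.12 in ectoderm and 18.2 in forebrain. Etv3, an ETS family repressor gene, had 4.18, 4.84, 3.76, 5.23 and 18.8, and Cmtr1, a messenger RNA cap methyltransferase gene, 4.92, 4.57, 3.41, 5.34 and 17.5. At Mogs the ectoderm folds were 2.69, 3.12, 2.12 and 3.77 and the forebrain fold 15.3. These members were picked by their lead, so low ectoderm ranks that do not overlap the forebrain rank follow from the choice. Ranked by pileup, the lead was 40.9 points at Mogs, 33.5 at Pomc and 33.8 at Cmtr1, but 19.8 at Zfp660 and 12.8 at Etv3.

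The opposite pattern was seen at Brox, whose product carries an ESCRT-binding domain, with folds of 19.6 and 19.2 in the forelimb libraries, 20.9 and 19.7 in the hindlimb pair and 6.28 in forebrain (chr1:183299061-183299654, 2060 bp from the gene's start). Slitrk6, a neuronal membrane protein gene, had 15.7, 11.7, 7.50, 14.8 and 5.87. The member near the finish of Entpd6, a nucleotidase gene, had 13.7, 14.3, 8.33, 15 and 5.90. Mctp2 had 13.7, 14.4, 8.87 and 14.1 in ectoderm and 7.35 in forebrain. All 4 ectoderm ranks by fold lie above forebrain through the choice of these members. By pileup they were above as well, with a gap of 46.9 points at Brox, 46.2 at Slitrk6, 80.8 at Entpd6 and 70.0 at Mctp2.

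**Figure D5:**
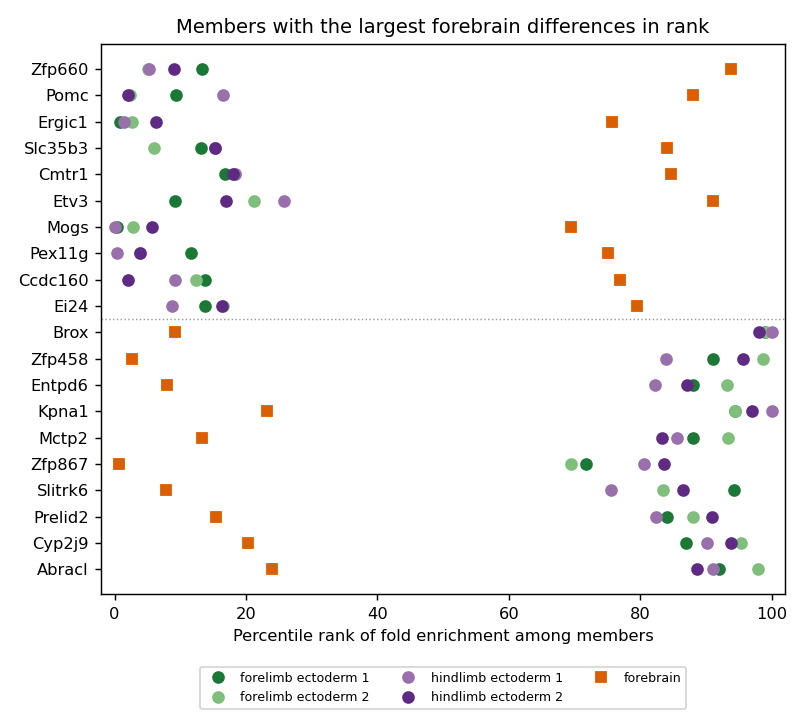
Percentile rank of fold among the 9836 members (x axis) in each of the 5 libraries for the 10 members with the largest forebrain lead (upper rows) and the 10 with the largest forebrain deficit (lower rows). The squares for forebrain lie between 69.5 and 93.9 in the upper rows and at 23.3 or below in the lower rows, except for Abracl at 24.0.

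ETS letters were the motif that differed most between these groups as made by fold rank. The other motifs were not compared in groups made by other measures. ETS was in 113 of 392 promoters (28.8%, interval 24.4 to 33.6) where forebrain ranked above and in 35 of 373 (9.38%, 6.62 to 12.8) where it ranked below, against 19.9% at all members. The printed Mogs and Zfp105 promoters are of the former kind. Among CpG-rich promoters alone the shares were 30.3% and 10.9%. The measure of strength mattered here. Over all promoters, the shares were 18.8% and 12.8% by pileup and 19.6% and 11.7% by −log10 p. Under both, the share where forebrain ranked above did not exceed the 19.9% at all members. By the sum of folds over all summits the shares were 23.0% and 17.7%. E2F letters were in 6.38% and 2.14%, and the CCAAT box in 22.2% and 25.7%. In replication-dependent histone genes the median forebrain rank was 20.5 against an ectoderm median of 53.5 by fold, and 46.6 against 53.7 by pileup.

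Forelimb and hindlimb ectoderm were compared through the order of their ranks. Both forelimb ranks exceeded both hindlimb ranks in 1963 members (20.0%), and the reverse held in 2036 (20.7%). Of these, 473 members in each direction had a gap of 10 points or more. By fold rank the largest forelimb lead was at Nxf2, an RNA export gene on the X chromosome, with folds of 10.5 and 9.41 in forelimb and 3.73 and 5.27 in hindlimb. Cyp4v3 had 7.44 and 7.14 against 2.55 and 3.29, and Zfp773 11.2 and 11.5 against 3.86 and 7.19. On the hindlimb side, Kmt2a, a histone H3 lysine 4 methyltransferase gene, had 4.48 and 3.89 in forelimb and 8.13 and 10.7 in hindlimb. Phf21a had 5.19 and 4.21 against 6.38 and 10.3, and Bmpr1a, a receptor for bone morphogenetic proteins, 5.65 and 4.17 against 7.37 and 10.6. The lists differ in overall fold, so these pairs are read through their ranks. By pileup the forelimb lead was 20.5 points at Nxf2, 22.0 at Cyp4v3 and 31.2 at Zfp773, and among the 5 largest by fold it was highest at Cybc1, at 33.6. The hindlimb lead by pileup was 38.2 points at Kmt2a, 33.2 at Phf21a and 35.7 at Bmpr1a.

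Which limb ranked above ran with width and base composition across the set. With 2 libraries per limb, such an order can also arise between like libraries, and that part was not tested. Spearman's correlation of width with fold rank was 0.00317 and -0.00273 in the forelimb libraries and 0.125 and 0.0471 in the hindlimb pair. The hindlimb replicates thus differed, with the larger value in replicate 1, the library with the shortest list. Members were split by width into 5 classes of nearly equal size. In the narrowest class, forelimb ranks were both above in 26.7% and hindlimb ranks in 13.4%, and in the widest class the shares were 12.5% and 29.6%. By pileup the shares were 25.6% and 16.5%, then 16.3% and 31.0%. By the sum of folds the gradient was nearly flat, at 18.7% and 18.5%, then 16.7% and 21.6%. CpG-rich promoters were 71.0% of those where forelimb ranked above and 86.3% of those where hindlimb ranked above. The CCAAT box was in 28.9% and 17.2% of these, ZNF143 in 6.37% and 2.53%, and the GC box in 20.8% and 28.5%. Whether the handling of the libraries differed between limbs is not given, and the part of library quality was not tested.

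The weakest and the widest members close the range. The lowest mean rank was that of Arid1b, a chromatin remodelling subunit gene, with folds of 2.86 and 2.73 in the forelimb libraries, 2.32 and 2.14 in the hindlimb pair and 3.45 in forebrain. Ptf1a, a transcription factor gene of pancreas and cerebellum, had 2.52, 2.27, 2.38, 2.18 and 4.78. The widest members were found at Gm20783 (3147 bp), Tsc22d2 (3047 bp), Fat3, a protocadherin gene (2969 bp), and Cdk6, a cell cycle kinase gene (2930 bp), all with mean ranks of 26.1 or below by fold. By pileup these were 95 at Gm20783, 52.0 at Tsc22d2, 34.1 at Fat3 and 34.9 at Cdk6, so the place of the widest members rests on the measure. Cited2, a transcriptional co-regulator gene with a member of 2709 bp, reached 42.7 by fold. Its pileup rank lay between 63.2 and 90.4, against fold ranks of 12.2 to 63.0.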

How the data were processed

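The authors deposited 1 peak list per library, called separately for each sample. Per the submitters' processing notes, reads were handled with Bowtie2 2.3.5, cutadapt 1.16, bedtools and Picard, peaks with MACS2 2.1.1.20160309, on mm10. Read shift and extension are not given in the sources used here, nor are read totals, so the depth is known only through the background rates below. Each deposited row holds an interval, a summit, a fold enrichment ratio, a −log10 p and a −log10 q. The deposited score column is a scaled −log10 q and was not used. The smallest deposited −log10 q was 1.30 to 1.31, that of a q-value threshold of 0.05.

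Peaks on chromosomes 1 to 19 and X were merged where they overlapped by 1 bp, with Python 3.11.15, numpy 2.4.6, pandas 2.3.3 and scipy 1.17.1. A member's strength was its highest deposited fold in each library. The summit pileup and local background were solved for each row from its fold and −log10 p with Poisson tails and a pseudocount of 1, which met the stated p for 100% of rows. The most frequent background, a relative depth, was 3.1 and 3.68 in the forelimb libraries, 4.36 and 4.12 in the hindlimb pair and 4.62 in forebrain. Lists held 73767, 73627, 51392, 78075 and 120280 intervals in the same order.

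Gene ends came from RefSeq (GRCm38.p6). Strand and promoters came from a RefSeq promoter table that matched 17274 of 21631 protein-coding genes and held 0 entries on chromosome 18. Promoter values use genes with a member at the start, and members at either end serve as the alternative, the reverse of what was planned. All merging, motif and pileup steps were tested on simulated data.

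The members, gene lists and motifs were chosen with earlier results of these data known. Named members are the 15 highest and 5 lowest mean ranks, the 10 largest forebrain differences each way, the 5 largest limb differences each way, the 8 widest, the 8 highest at a finish, up to 4 genes per list and those nearest the distance limit, and a selection of these is printed. No significance test was run. Ranking by pileup, gene list counts without hindlimb replicate 1 and the ETS shares under other settings were added after the data were seen.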

Additional observations from a re-analysis of the deposited data

How the results depend on the processing

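The number of members stayed within 1.5 times 9836 in every setting tried: 8861 within 1 kb of a gene end, 10508 within 5 kb, 9839 by the strongest summit, 8197 at a −log10 q of 5 or more, 9811 with 100 bp of overlap to join, 9329 with lists of equal length, 9516 on autosomes, 10339 in the ectoderm libraries alone, and 9918 to 11454 with an ectoderm library left out. The share of genes with a member was 46.0% within 1 kb, 54.7% within 5 kb, 43.5% at a −log10 q of 5 or more, 48.8% with lists of equal length, 51.6% on autosomes and 51.1% to 56.9% with a library left out, the highest without hindlimb replicate 1. The start share was 97.7%, 93.4%, 96.7% and 96.4% in the first 4 of these settings, 94.6% in the ectoderm libraries alone and 93.4% to 95.7% with a library left out. Members ranking above in forebrain numbered 250 by −log10 p and 285 by pileup, and 572 to 614 with an ectoderm library left out, where 559 to 624 ranked below. The ETS share where forebrain ranked above was 19.6% by −log10 p, 23.0% by the sum of folds, 18.8% by pileup and 26.0% to 29.5% with a library left out. Where forebrain ranked below it was 17.7% by the sum of folds and 9.20% to 9.66% with a library left out. The cause of these shifts was not tested. Of 48 alternative motif shares, 47 stayed within the counting interval of the value reported. The mean rank of the 74 named members moved by more than its spread over libraries in 26 by −log10 p, 37 by the sum of folds and 34 by pileup.

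No paired analysis was possible because the results are counts, shares and ranks, with no test to block by replicate. Among the libraries left out in turn, hindlimb replicate 1, which had the shortest list, moved the number of members most, and the cause of its short list was not tested. A missing peak there means that none was called, not that the site was closed. Strand is known for only part of the genes, and the members nearest to other ends are left out of start shares. Fold values belong to their own lists.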

Other observations

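Members were unevenly spread over chromosomes. On X, 340 of 966 genes (35.2%) had a member, below the 42.8% to 59.7% of the autosomes. Chromosome 7 had the lowest autosomal share, 42.8%, and without olfactory and vomeronasal receptor genes it was 53.8%, while X without them was 35.5%. The sex of the embryos is not given.

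The fold of hindlimb replicate 1 was at or above every other ectoderm fold in 58 members (0.590%), whose median mean rank was 12.8. Of these, Brox alone had a mean rank of 75 or more, with 20.9 against 19.2 to 19.7 in the other ectoderm libraries. The local background at that member was 7.33 to 9.57 times the library's own rate, against library medians of 1.84 to 4.34 over all members. Lars2 (24.5) and Kpna1 (18.4) were also high in that library. These members were chosen after their values were seen.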
